A study of Zea mays with 54 samples.

Results

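A group of 58 maize nuclear genes fell at low phosphate (P) supply in roots of the genotype F7 and rose at low P in roots of EP1 and F142. They were picked from 44146 nuclear gene models by their CPM (the read count as a share of the library total, put on a common scale). A member had a mean of 5 CPM or more over the F7 high P libraries 2 and 3, and its mean over the F7 low P libraries 1 and 3 was at most 0.25 of that. In EP1 and in F142 its low P mean was at least 2 times the high P mean and 2 CPM or more. The F7 condition was met by 1311 genes, the EP1 condition by 1986 and the F142 condition by 2168. EP1 and F142 conditions together were met by 1206. The opposite pattern, with the same limits, was shown by 163 genes. The values of F7 libraries 2 and 3 at high P and 1 and 3 at low P, and of all EP1 and F142 libraries, therefore chose the genes. They are described below without a test.

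Roots of 9 maize (Zea mays) genotypes with different breeding histories were grown at high or low P and profiled by RNA sequencing, with 3 libraries in each of 18 groups. EP1, F142, F2, F160, SF1 and SM1 are in a first count table and F7, P024 and P415 in a second. The labels name the genotype and the P level of each group. The sources used here give neither the P concentrations, the growth medium and the plant age nor whether a library came from 1 plant or several. The p-values below therefore measure the spread between these libraries, which may be technical. The contrast between F7 and the pair EP1 and F142 also lies between the count tables, and the 2 cannot be told apart for it. Each low P to high P comparison lies within a genotype and within a table.

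Phosphate is taken up by roots from a soil solution that is often poor in it. In plants, a shortage is relayed by transcription factors of the PHR family and by SPX proteins that sense inositol pyrophosphates, and the genes they control include phosphate transporters, secreted phosphatases and enzymes that replace membrane phospholipids with galactolipids and sulfolipids. Maize inbred lines are known to differ in root growth under phosphate limitation. The files do not pair the nuclear identifiers with gene names, and 0 of the 44146 identifiers, members included, were found in the gene table from RefSeq at hand. The genes are therefore described by identifier and by pattern, and no role is given to any of them. For the same reason root and leaf marker genes and the genes of the phosphate response could not be looked up.

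The libraries held 15585904 to 28733284 counts each in the first table, and those of the second 15830403 to 24821387. A gene without a count can still be at up to 0.192 CPM where depth is lowest (3 counts, counting error only). The library labelled F7 low P 2 held transcripts of genes that were expressed in P024 and silent in the F7 libraries of the rule. It also held transcripts of genes expressed in F7 and silent in P024. A separate set of 58 genes, none of them a member, had at least 5 CPM throughout P024 and less than 0.2 CPM in F7 (low P 2 and high P 1 not counted). In F7 low P 2, 58 of these 58 exceeded 1 CPM, and the median ratio to their P024 mean was 91.8%. In F7 high P 1, 25.9% of these 58 exceeded 1 CPM, with a median ratio of 0.879%. Of 120 genes expressed in F7 and silent in P024 by the same limits, 117 exceeded 1 CPM in F7 low P 2, at a median of 23.4% of their F7 level. Of 64 genes expressed in P415 and silent in F7 by the same limits, 44 exceeded 1 CPM in F7 low P 2. Their median there was 52.9% of their P415 level. These genes were not required to be silent in P024, and neither the P024 genes nor the 120 F7 genes were required to be silent in P415. Which genotype supplied the transcripts of the 120 genes was not tested. Whether P415 transcripts were present was not tested. The rule left F7 low P 2 and F7 high P 1 out, and their values are given separately. In P024 the libraries numbered 3 stand apart from those numbered 1 and 2 (below).

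In F7 the 58 genes had a median of 53.2 CPM at high P, with a range from 5.32 to 554 CPM over the mean of libraries 2 and 3. At low P, over the mean of libraries 1 and 3, the median was 6.73 CPM and the range 0.232 to 93.5 CPM. The fall was 6.53-fold at the median and 61.3-fold at most. Per gene length, on the authors' FPKM scale, the high P levels ran from 1.82 to 653 FPKM with a median of 37.4. Gene models of the group were short, with a median length of 1505 bases against 2040 bases for the 17256 nuclear genes at 5 CPM or more in F7 at high P. Of those 17256 genes 7.6% met the F7 fold of the rule. Among those that also met the EP1 and F142 conditions, 58 met the F7 fold and 658 did not, which is near that share. The 3 members nearest the limit had a low P mean of 24.4%, 24.5% and 24.7% of the high P mean, and the 3 genes nearest outside it 25.2%, 25.2% and 25.5%.

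Among the 9 genotypes at high P, F7 had the highest mean for 37 of the 58 genes. At low P it had the lowest mean for 35 of them. For 21 genes F7 at high P was the highest of all 18 groups, and for 25 genes F7 at low P was the lowest. The group was thus often at an extreme in F7 at both P levels, which the rule favours.

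Of the F7 libraries that the rule left out, high P library 1 stood at a median of 75.6% of the mean of high P libraries 2 and 3 over the 58 genes, with quartiles of 53.6% and 97.8%. Low P library 2 was above both other low P libraries for 36 genes, and at a median of 48.6% of the P024 low P mean. F7 low P 2 carries transcripts of genes silent in the F7 libraries of the rule. The rule also chose genes that are high in F7 at high P and low in F7 low P libraries 1 and 3. For these reasons neither left-out library is a further test of the F7 fall.

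**Figure D1:**
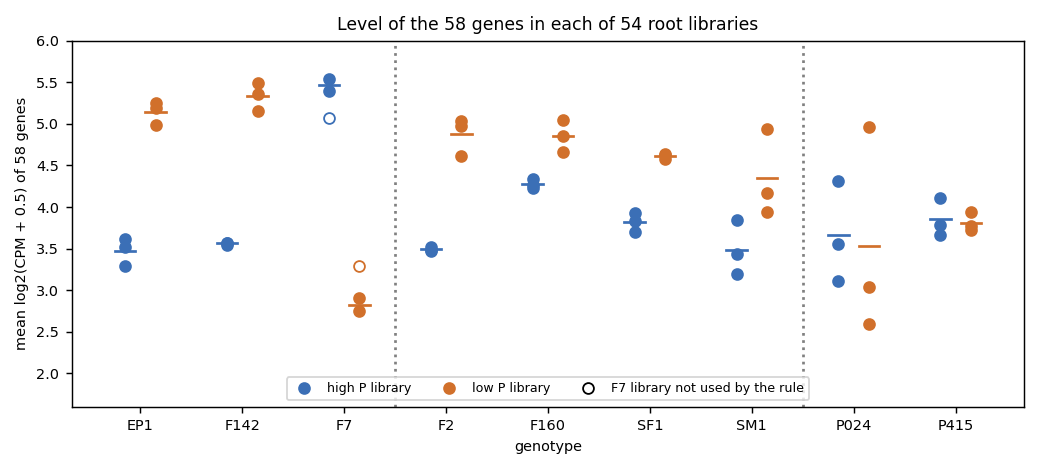
Mean log2(CPM + 0.5) of the 58 genes in each library, by genotype on the x axis, with high P in blue, low P in orange, a short line at each group mean (in F7 over the libraries of the rule) and open symbols for the F7 libraries that the rule did not use. EP1, F142 and F7 (left) chose the genes; the low P libraries lie above the high P libraries in F2, F160, SF1 and SM1, and the P levels overlap in P024 and P415.

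As a mean of log2(CPM + 0.5) over the 58 genes, the F7 libraries of the rule stood at 5.55 and 5.40 at high P and at 2.90 and 2.75 at low P. The libraries left out were at 5.08 (high P 1) and 3.29 (low P 2). EP1 went from 3.47 ± 0.17 to 5.14 ± 0.14 (SD, n = 3) and F142 from 3.56 ± 0.01 to 5.34 ± 0.17. At high P the group was thus higher in F7 than in EP1 or F142, and at low P it was lower. Summed over the group, the 58 genes took 0.56% and 0.511% of all counts in F7 high P libraries 2 and 3, and 0.0921% and 0.0791% in low P libraries 1 and 3.

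Member by member, the rise in EP1 was 2.79-fold at the median, with quartiles of 2.33-fold and 4.32-fold and a highest value of 38.4-fold. In F142 it was 3.02-fold at the median, with quartiles of 2.58-fold and 4.24-fold and a highest value of 23.8-fold. The lowest rises lay at the limit of the rule, at 2.01-fold in both.

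The 2 members with the highest F7 high P level were Zm00001d009567 and Zm00001d049510. Zm00001d009567 stood at 413, 613 and 496 CPM in F7 high P libraries 1, 2 and 3, and at 112, 126 and 75.4 CPM in low P libraries 1, 2 and 3. In EP1 it was at 216, 248 and 169 CPM at high P and at 398, 416 and 456 CPM at low P, and in F142 at 161, 191 and 205 CPM at high P and at 541, 335 and 443 CPM at low P. The groups do not overlap in any of these genotypes, and F7 has both the highest and the lowest of the 18 values. Zm00001d049510 was at 363, 533 and 489 CPM at high P in F7 and at 58.2, 92.9 and 40.2 CPM at low P. In EP1 it went from 112, 110 and 70.3 CPM to 265, 247 and 268 CPM. The F7 high P libraries lie above all EP1 libraries here, and the F7 low P libraries 1 and 3 below all of them.

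The genotypes F2, F160, SF1, SM1, P024 and P415 had no part in the choice of the genes, and their responses were tested with edgeR's quasi-likelihood test within each genotype, adjusted over all features tested, with a threshold of 0.05. In F2, 44 of 57 tested members rose, 0 fell and 13 missed the threshold, where 16.1% of all 25065 tested features rose and 14.2% fell; the 0 falls were also 0 at an unadjusted p under 0.05 in edgeR and 0 adjusted calls in DESeq2. In F160, 34 of 58 rose and 2 fell, with 13.3% and 9.48% of all features, and 5 fell without F160 low P 3. In SF1, 38 of 58 rose and 6 fell, with 28.1% and 26.8% of all features. In SM1, 26 of 57 rose and 2 fell, with 17.3% and 15.7% of all features. The 2 falls in SM1 were 4 without high P 1 or low P 1, and 1 without high P 3, low P 2 or low P 3. The members' share of rises was above that of all features in each of the 4 genotypes, and their share of falls below it. Against other genes that met the EP1 and F142 conditions the order differed (given further below).

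The median log2 fold change of the tested members was 1.42 in F2, 0.82 in F160, 0.87 in SF1 and 1.08 in SM1, while the median over all tested features was -0.02, -0.01, 0.01 and -0.02. At the level of the whole group, F2 went from 3.49 ± 0.02 to 4.88 ± 0.22 (mean log2(CPM + 0.5), SD, n = 3), F160 from 4.27 ± 0.06 to 4.85 ± 0.19, SF1 from 3.82 ± 0.12 to 4.61 ± 0.03 and SM1 from 3.49 ± 0.33 to 4.35 ± 0.52. In SM1 the low P libraries were at 4.94, 4.17 and 3.94 and the highest high P library at 3.84, so the order there rests on a narrow gap. Without SM1 high P 3 the number of members that rose in SM1 was 14 in place of 26. These 4 genotypes share the first count table with EP1 and F142. In bulk roots, fewer cells of a type and less RNA per cell cannot be told apart.

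**Figure D2:**
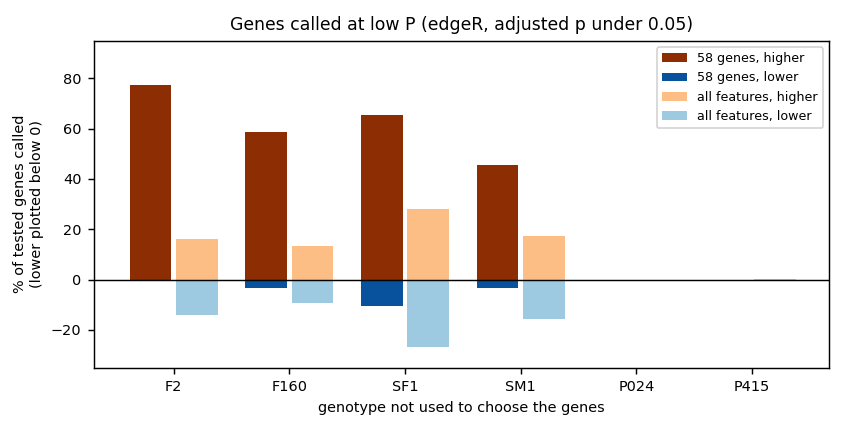
Percent of tested genes called higher (above 0) or lower (plotted below 0) at low P in the 6 genotypes that did not choose the genes, for the 58 genes and for all features tested. The dark bars of the 58 genes reach 77.2% in F2, 58.6% in F160, 65.5% in SF1 and 45.6% in SM1, above the pale bars of all features, and are at 0 in P024 and P415.

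Averaged over F2, F160, SF1 and SM1 in 1 model of 24 libraries, 43 of 58 members rose, 0 fell and 15 missed the threshold, where 25.9% of 28043 features rose and 27.1% fell. By edgeR 1 member was lower at an unadjusted p under 0.05, and DESeq2 also called 0 lower, while edgeR called 2 lower without the libraries numbered 2. The median log2 fold change was 1.02, against -0.02 over all features, and 54 of 58 fitted averages were above 0. Of the 57 members tested in each of the 4 genotypes, 14 rose in 4 of them, 17 in 3, 10 in 2, 13 in 1 and 3 in none. Of all 22675 features tested in each, 5.16% rose in 4, 5.81% in 3, 10% in 2, 19.5% in 1 and 59.5% in none.

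The 2 largest average rises were those of Zm00001d004287 and Zm00001d047728. Zm00001d004287 was at 1.55, 1.85 and 2.82 CPM at high P in F2 and at 30.0, 17.2 and 23.5 CPM at low P. In SF1 it went from 1.69, 1.53 and 1.18 CPM to 18.0, 14.5 and 16.3 CPM, and in F160 from 1.32, 1.44 and 1.67 CPM to 24.1, 14.9 and 23.8 CPM. Low P libraries lay above all high P libraries in each, with log2 fold changes of 3.56 ± 0.30 (SE) in F2, 3.59 ± 0.17 in SF1 and 3.91 ± 0.24 in F160 and edgeR adjusted p of 0.000533, 1.7e-06 and 7.56e-05. In SM1 the low P libraries were at 10.9, 3.71 and 3.00 CPM and the high P libraries at 1.07, 2.08 and 0.789 CPM, a log2 fold change of 2.24 ± 0.59 (SE) with an edgeR adjusted p of 0.0276; without SM1 low P 1 it was 1.44, with an adjusted p of 0.0595. Averaged over the 4 genotypes the change was 3.32 ± 0.21 (log2, SE; edgeR adjusted p 5.34e-11). In F7 the same gene was at 8.22, 8.89 and 1.76 CPM at high P and at 0.121, 0.821 and 0.343 CPM at low P, so that its F7 mean in the rule rests mainly on high P library 2.

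Zm00001d047728 was at 1.10 CPM or less in all high P libraries of F160, SF1 and SM1. At low P it reached 3.65, 3.23 and 3.02 CPM in F160, 7.83, 4.83 and 8.08 CPM in SF1 and 13.4, 10.3 and 7.91 CPM in SM1, with log2 fold changes of 2.81 ± 0.28, 3.44 ± 0.27 and 3.81 ± 0.34 (SE) and edgeR adjusted p of 0.000661, 2.53e-05 and 0.000622. In F2 the libraries were at 0.831, 2.60 and 1.80 CPM at high P and 3.04, 2.64 and 5.07 CPM at low P, and the difference of 1.08 ± 0.45 did not pass the test (edgeR adjusted p 0.117). Averaged over the 4 genotypes the change was 2.78 ± 0.19 (log2, SE; edgeR adjusted p 1.86e-10). F7 showed the reverse order, with 5.36, 12.5 and 13.6 CPM at high P and 0.847, 1.33 and 0.857 CPM at low P. P415 was at 7.79, 5.42 and 5.42 CPM at high P and 3.44, 4.99 and 6.11 CPM at low P, where the groups overlap.

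**Figure D3:**
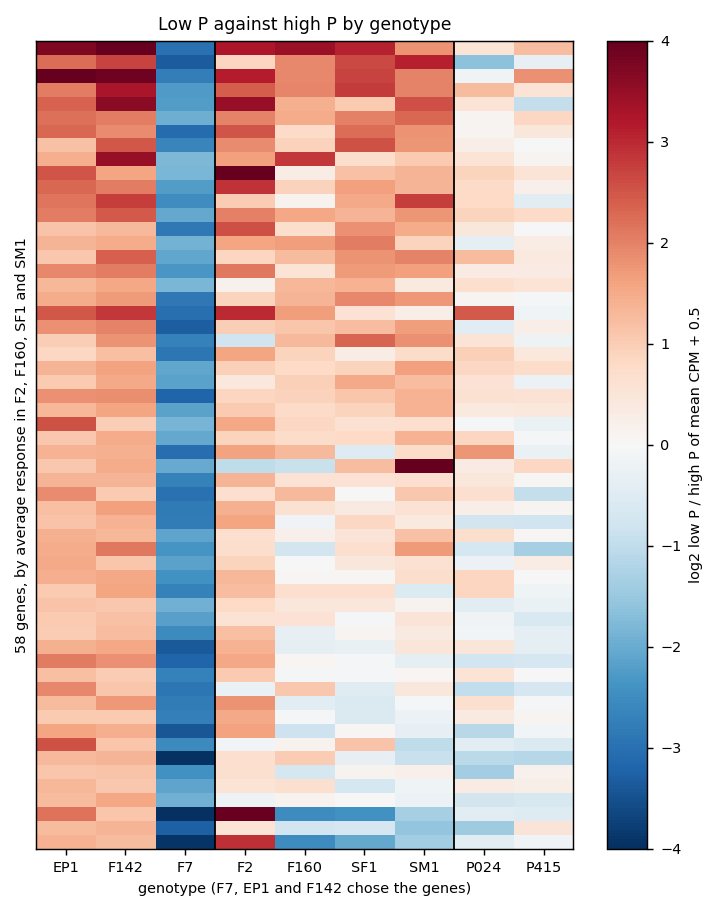
Log2 ratio of low P to high P mean CPM (offset 0.5) for each of the 58 genes (rows, sorted by the average response in F2, F160, SF1 and SM1) in each genotype (columns), with red for higher and blue for lower at low P. The F7 column uses the 4 libraries of the rule; most rows are red in F2, F160, SF1 and SM1, the bottom rows turn blue in F160, SF1 and SM1, and P024 and P415 are pale.

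The size of the response differed among F2, F160, SF1 and SM1 for 31 of 58 members (edgeR, genotype by P interaction, adjusted p under 0.05), where 42.1% of all 28043 features passed the same test. In 22 of these 31 the highest fitted log2 fold change of the 4 was that of F2, which held for 30.7% of the 10600 features that passed the interaction and were tested in each of the 4 genotypes. Of the 43 members that rose on average, 21 also passed the interaction test and 22 did not. The count of 31 was 15 without the libraries numbered 2 and 20 without those numbered 3.

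Zm00001d005951 had the smallest interaction p of the group, with an adjusted p of 0.000102. It rose in all 4 genotypes, from 5.43, 7.34 and 6.03 CPM to 79.7, 81.2 and 63.1 CPM in F2 and from 14.0, 12.2 and 8.37 CPM to 96.9, 59.8 and 58.9 CPM in SM1. In F160 it went from 28.0, 25.1 and 23.3 CPM to 84.4, 66.5 and 56.4 CPM and in SF1 from 23.7, 46.0 and 42.1 CPM to 73.7, 76.7 and 84.7 CPM. The low P levels were close in the 4 genotypes and the high P levels apart. The log2 fold changes were 3.62 ± 0.17 (SE) in F2, 2.72 ± 0.30 in SM1, 1.53 ± 0.15 in F160 and 1.19 ± 0.21 in SF1, with edgeR adjusted p of 9.24e-05, 0.00143, 0.00057 and 0.00154. In F7 it was at 78.5, 131 and 110 CPM at high P and at 33.6, 7.71 and 16.7 CPM at low P. Of the F7 high P libraries only library 1, which the rule left out, lies within the low P range of these 4 genotypes. Libraries 2 and 3 lie above it, in a comparison that crosses the count tables. Zm00001d044744, next by p (adjusted p 0.00011 in edgeR), went from 13.0, 15.1 and 11.0 CPM to 40.6, 65.8 and 32.6 CPM in F2. In SF1 it went from 57.0, 56.6 and 45.6 CPM to 34.6, 33.9 and 38.5 CPM. It rose in F2 by 1.88 ± 0.28 (SE) and fell by 0.46 ± 0.10 in SF1 on the log2 scale, with edgeR adjusted p of 0.00367 and 0.00578.

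Of the 57 members tested in each of the 4 genotypes, 7 (12.3%) fell in at least 1, against 38% of all features. A fall in at least 1 with a rise in another was shown by 6 of the 57 (10.5%), against 6.32% of all features. In F160 the 2 members that fell were Zm00001d021207 and Zm00001d021208, which carry consecutive identifiers. Zm00001d021208 was at 35.7, 35.3 and 40.4 CPM at high P in F160 and at 7.83, 6.25 and 4.12 CPM at low P, and in SF1 it went from 45.8, 29.5 and 36.9 CPM to 6.12, 8.03 and 5.39 CPM. In F2 it went the other way, from 1.72, 3.19 and 2.25 CPM to 11.7, 115 and 7.42 CPM. The groups do not overlap in any of these, and the F2 rise is largest in low P library 2. The log2 fold changes were -2.52 ± 0.22 (SE) in F160, -2.40 ± 0.21 in SF1 and 4.27 ± 1.15 in F2, with edgeR adjusted p of 0.00033, 4.5e-05 and 0.0316. In SM1 the log2 fold change was -1.25 ± 0.50 and did not pass the test (edgeR adjusted p 0.0941). Without F2 low P 2 the F2 value was 2.04 with an adjusted p of 0.012, and it did not pass the test without any one of the F2 high P libraries (adjusted p 0.0713 to 0.1).

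Zm00001d021207 followed the same course in F160, SF1 and F2, and its fall in SM1 passed the test. It was at 19.8, 21.4 and 23.9 CPM at high P in F160 and at 4.44, 4.44 and 1.33 CPM at low P, a log2 fold change of -2.57 ± 0.39 (SE) with an edgeR adjusted p of 0.00399. It fell by 2.09 ± 0.26 in SF1 (adjusted p 0.000263) and by 1.39 ± 0.31 in SM1 (adjusted p 0.016) on the log2 scale. In F2 it went from 3.49, 4.84 and 2.31 CPM to 8.20, 74.4 and 8.64 CPM, a log2 fold change of 3.14 ± 0.96 with an edgeR adjusted p of 0.0476, and of 1.29 without F2 low P 2 (adjusted p 0.041). The interaction passed for both genes, with edgeR adjusted p of 0.000411 for Zm00001d021207 and 0.000271 for Zm00001d021208. Both fell in F7 from levels near 100 CPM: Zm00001d021207 was at 111 and 97.9 CPM in high P libraries 2 and 3 and at 2.12 and 10.7 CPM in low P libraries 1 and 3, with Zm00001d021208 at 122 and 105 CPM and at 0.847 and 2.86 CPM. F7 high P library 1 held 19.3 and 18.6 CPM of them, well under the other high P libraries. Reads that could belong to either gene cannot be separated here. The other member that fell in SM1, Zm00001d015777, went from 14.2, 15.1 and 15.1 CPM to 7.90, 7.60 and 5.73 CPM, a log2 fold change of -0.97 ± 0.17 (SE) with an edgeR adjusted p of 0.00651. It rose in SF1, from 1.46, 0.86 and 0.71 CPM to 2.92, 3.97 and 1.71 CPM, by 1.64 ± 0.40 on the log2 scale (edgeR adjusted p 0.0087).

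**Figure D4:**
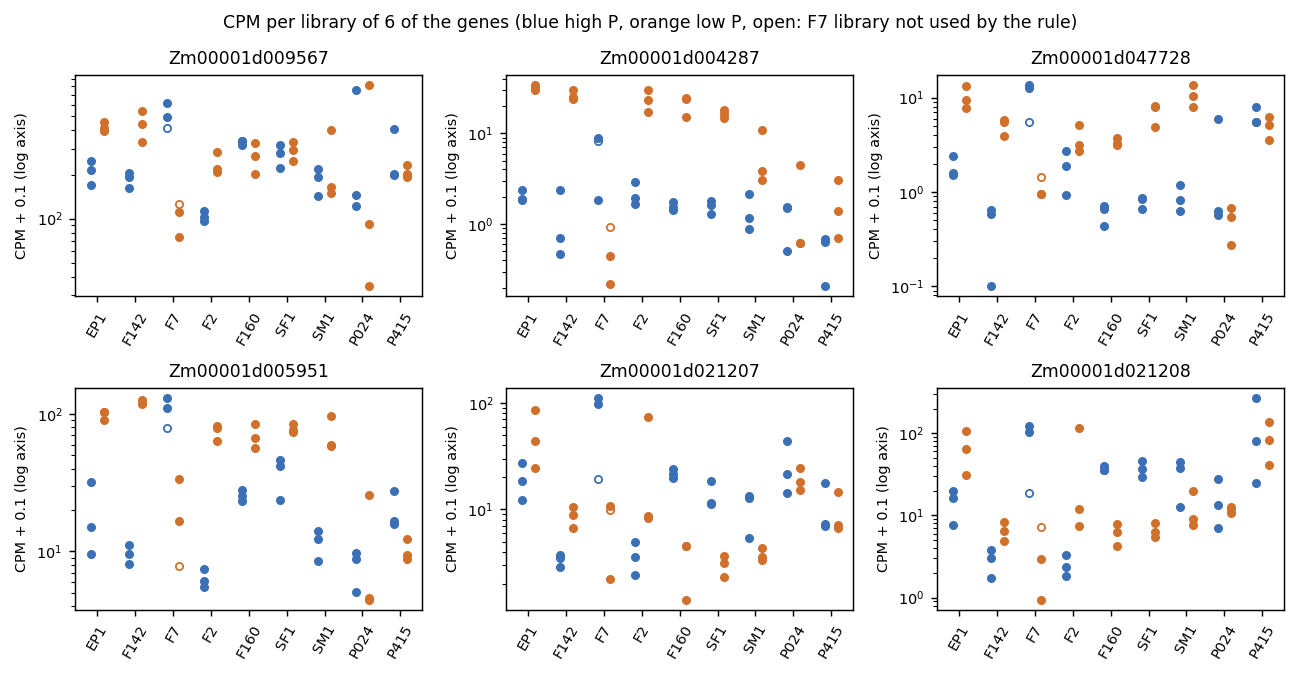
CPM (offset 0.1, log axis) of 6 of the genes in each library, by genotype, with high P in blue, low P in orange and open symbols for the F7 libraries that the rule did not use. Zm00001d004287, Zm00001d047728 and Zm00001d005951 are higher at low P in F160, SF1 and SM1, where Zm00001d021207 and Zm00001d021208 are lower in F160 and SF1 and higher in F2.

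In P024 and P415, which share the second count table with F7, no member passed the test. In P024, edgeR called 0 of 53 tested members in either direction, against 0% of all 23864 features. At an unadjusted p under 0.05 in edgeR there were 1 of the 53 members and 269 of the 23864 features. DESeq2 made 0 member calls in P024 (2 members at unadjusted p under 0.05). In P415, edgeR called 0 of 58, against 0.204% of 23962 features called higher and 0% lower. At an unadjusted p under 0.05 in edgeR there were 4 of the 58 members and 1272 of the 23962 features. DESeq2 made 0 member calls in P415 (4 members higher and 3 lower at unadjusted p under 0.05). The median log2 fold change of the members was 0.35 in P024 and 0.04 in P415, against 0.004 and 0.008 over all features tested. With the replicate number as a block the medians of the members were -0.09 and -0.06. Same-numbered libraries deviated together in P024. In P415 they did so less, and high P 1 correlated best with a low P library of another number.

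The P024 values are wide. Its libraries numbered 3 stood at 4.32 at high P and 4.96 at low P in mean log2(CPM + 0.5) of the 58 genes, and those numbered 1 and 2 between 2.59 and 3.56 at both P levels. Zm00001d009567 was at 121, 144 and 751 CPM at high P in P024 and at 92.2, 34.5 and 821 CPM at low P. Without P024 low P 3 the median log2 fold change of the members was -0.88, and without high P 3 it was 0.78. In P415 the high P libraries were at a mean of 3.85 ± 0.23 and the low P libraries at 3.81 ± 0.11 (SD, n = 3). The P levels overlap in both genotypes, and the spread does not allow a response of the size seen in the first table to be read as present or absent in P024.

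Other genes that met the EP1 and F142 conditions, had 5 CPM or more in F7 at high P and did not fall 4-fold in F7 numbered 658. Of those tested, 90.4% rose in F2, 76.1% in F160, 91.2% in SF1 and 77.0% in SM1, and in P415 25 of 649 rose. The 58 members rose in 77.2%, 58.6%, 65.5% and 45.6% of those tested in the same 4 genotypes. Falls were called for 0%, 3.45%, 10.3% and 3.51% of the tested members in F2, F160, SF1 and SM1. Among the 658 other genes these shares were 0.459%, 0.92%, 1.37% and 0.613%. The median log2 fold change of the tested genes of the 658 was 0.43 in P024 and 0.45 in P415. For the members it was 0.35 and 0.04. Another 1253 genes met the F7 condition but not both the EP1 and F142 conditions, and some of them met 1 of these. They showed another balance, with 15.8% higher and 23.6% lower in F2, and 12.0% higher and 57.7% lower in SF1. The difference between these sets was not tested.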

How the data were processed

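The authors deposited raw read counts per gene in 2 tables and FPKM values in 2 more, with a gene length column. The submitters' processing notes name fastp, HISAT2, HTSeq and the B73 RefGen_v4 build. The sources used here give no versions, strand setting or rule for multiply mapped reads. The counts were tested as deposited. Deposited FPKM served only to give levels per gene length and entered no test.

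Members and tests were chosen with earlier results of these data known. Each genotype's low P and high P libraries were compared with edgeR 4.0.16 (limma 3.58.1, R 4.3.3): TMM scaling, filterByExpr, quasi-likelihood F-test, Benjamini-Hochberg adjustment over all features. A model of 24 libraries gave the average and the interaction over F2, F160, SF1 and SM1. With 3 libraries against 3, an exact permutation test cannot go below 0.1. SEs were derived from the F statistic (fold change size divided by its root) and are approximate. The fits were tested on simulated counts. Alternatives were RLE scaling, library totals, no filter, DESeq2 1.42.0, a replicate block, left-out libraries and other limits of the rule. All 54 replicate pairs differed by more than sampling noise (lowest chi-square 7.02 per degree of freedom), so none was merged. Same-numbered libraries correlated above 0.1 throughout in F160, P024 and P415 (0.124 to 0.248, 0.462 to 0.815 and 0.161 to 0.359), as read from the data. Genes were named by a rule on F7 level, average response and interaction p, kept to the first 2 of each because the identifiers carry no names; members that fell were named after their values were seen.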

Additional observations from a re-analysis of the deposited data

Results flagged for a closer look

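The response to low P differed among F2, F160, SF1 and SM1 for 31 of the 58 genes by the interaction test, which 42.1% of all features also passed. Of the genes named above, it passed for Zm00001d005951 (edgeR adjusted p 0.000102), Zm00001d044744 (0.00011), Zm00001d021208 (0.000271), Zm00001d021207 (0.000411), Zm00001d047728 (0.00138), Zm00001d049510 (0.00408) and Zm00001d009567 (0.0239). For Zm00001d009567 and Zm00001d049510 the difference was a rise in F2, by log2 fold changes of 1.25 ± 0.14 and 1.44 ± 0.15 (SE, edgeR adjusted p 0.00142 and 0.000951), with no call in the other 3 genotypes. Their average log2 fold changes of 0.42 ± 0.13 and 0.39 ± 0.14 (adjusted p 0.0125 and 0.02) were 0.14 and 0.19 without the libraries numbered 1, with adjusted p of 0.267 and 0.365. Without the libraries numbered 2 the interaction of Zm00001d047728 had an adjusted p of 0.0505 and that of Zm00001d009567 one of 0.197.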

How the results depend on the processing

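The number of genes meeting the rule depended on its limits: 95 and 31 with F7 limits of 1/3 and 1/6, 170 and 17 with EP1 and F142 rises of 1.5 and 3 times, and 49 with all 6 F7 libraries, of which 41 were among the 58. Leaving out 1 EP1 or F142 library gave 53 to 70. Counts of members that rose in F2, F160, SF1 and SM1, and on average, stayed within 1.5 times under RLE scaling, library totals, no filter and DESeq2. With the replicate block they were 45, 35, 35, 21 and 45, and the block changed no printed call of F160, P024 or P415. Leaving out 1 library gave 14 to 28 rises in SM1, 1 to 4 falls in SM1, 2 to 5 falls in F160 (5 without F160 low P 3), and median log2 fold changes of 0.79 to 1.02 in SF1 and -0.88 to 0.78 in P024. Rises then numbered 38 to 43 in F2, 23 to 38 in F160 and 35 to 39 in SF1, and the SM1 median was 0.74 to 1.46. Over the 4 genotypes, falls numbered 1 with library totals, 1 with the replicate block and 0 to 2 without one replicate number, and interaction calls 15 to 22. The SF1 median was 0.75 with library totals. The causes were not tested. Same-numbered libraries of F2, SF1 and SM1 did not all correlate above 0.1, so their numbers are not taken as pairs; in F2 each high P library still correlated best with its own number. The spread between libraries limits P024 most.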
